A study of Rattus norvegicus with 7 samples.

Results

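The mucin genes of rat colon crypts were taken as the genes of the RNA table whose symbol is Muc followed by a number and any letters, with no row marked as failed or short of data. This rule found 4 genes, Muc1, Muc13, Muc15 and Muc20, among 16468 genes kept. All 4 encode membrane mucins, and 2 of them, Muc1 and Muc13, reached 1 FPKM (a fragment count divided by transcript length and by library size) in at least 1 library, the level from which a gene was called measured. RNA came from colonic crypts of rats of the outbred Sprague Dawley strain, aged 14 weeks, with no treatment named in the labels. The proximal group was 1 library of proximal colon crypts and the distal group 1 library of distal colon crypts, each made from material of 7 rats combined. A single library per region gives neither replicate spread nor a test of the regions, so every difference below compares these 2 libraries only. Where a pair of FPKM values follows a gene below, the proximal value comes first and the distal value next.

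Mucins are large proteins whose serine- and threonine-rich stretches carry dense O-linked sugar chains. Membrane mucins are anchored in the apical surface of epithelial cells and form the glycocalyx, and many of them are cut in a so-called SEA domain and signal through a short cytoplasmic tail. Gel-forming mucins are secreted by goblet cells, polymerise through their ends and build the mucus layer of the colon, whose main scaffold is Muc2.

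A comparison of membrane with gel-forming mucins could not be made from these values. Of 13 rat symbols of this form in the RefSeq gene table, 9 had no row in the RNA table as used here, also under a synonym. They were the 5 gel-forming mucins Muc2, Muc5ac, Muc5b, Muc6 and Muc19, and the membrane mucins Muc3, Muc3a, Muc4 and Muc16.

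Both libraries were set against lists of cell type markers, none of which separates crypt from surface epithelium. All 11 colon epithelium markers with a row were measured, such as the keratin gene Krt8 at 2328 and 3436 FPKM. One of them, the carbonic anhydrase gene Car1, stood at 11730 and 1781 FPKM, and the other 10 were less than 2-fold apart. Squamous epithelium markers summed to 7.58 and 6.64 FPKM over 10 genes, with 5 at 0 in both libraries and Krt15 holding most of the sum. Smooth muscle and fibroblast markers summed to 1.89 and 5.48 FPKM over 9 genes, and endothelial markers to 1.84 and 1.49 FPKM over 4 genes. Most of the muscle difference was Des, the desmin gene, at 0.0398 and 2.91 FPKM. Leukocyte markers summed to 54.1 and 15.8 FPKM over 11 genes. Of the 9 measured, 5 were at least 2-fold higher proximally and 4 were less than 2-fold apart, such as the T cell gene Cd3g at 6.37 and 6.49 FPKM. Calls of the authors' deposited table went to Car1, Des and those 5 leukocyte genes. The part of these differences in the mucin values was not tested.

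Muc1 was the mucin that differed between the regions. Muc1 encodes a membrane mucin of many glandular epithelia whose tail binds signalling proteins and beta-catenin. Its level was 3.97 FPKM proximally and 27.8 FPKM distally. The distal value was 7.01 times the proximal one, or 2.54 on the log2 scale of FPKM + 1. It was the single mucin, 1 of the 2 measured, that lay 2-fold or more above its proximal level, against 3.71% of all measured genes. No measured mucin lay 2-fold or more below it, against 3.91% of all measured genes. Of 9847 measured genes, 53 (0.538%) had a higher distal ratio than Muc1. Among 2351 genes with a proximal level of 2 to 8 FPKM, 3.96% lay 2-fold or more higher distally and 10 others had a ratio as high as that of Muc1. In rank, Muc1 was number 8002 of the 16468 genes by level in the proximal library and number 3269 in the distal one.

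Muc1 was called different in the authors' deposited table, with a log2 fold change of 2.81 and a q-value of 1.16e-07, where 2.73% of the tested rows were called higher distally and 2.69% proximally. The test statistic of the authors' deposited table implies a standard error of 0.46 and a 95% interval of 1.91 to 3.71, which is 3.76-fold to 13.1-fold. That error comes from the model behind the table and does not measure variation between rats.

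In bulk RNA, fewer Muc1-expressing cells and less Muc1 RNA per cell cannot be told apart. Muc1 was also set against each of the 11 colon epithelium markers. As a percentage of Epcam, an epithelial adhesion gene, Muc1 was at 0.267% proximally and 1.40% distally. Relative to 10 of the markers in turn, the distal over proximal ratio of Muc1 ranged from 4.05 (against the keratin gene Krt18) to 8.85 (against the chloride exchanger gene Slc26a3). Relative to Car1, which was itself lower distally, it was 46.2.

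**Figure D1:**
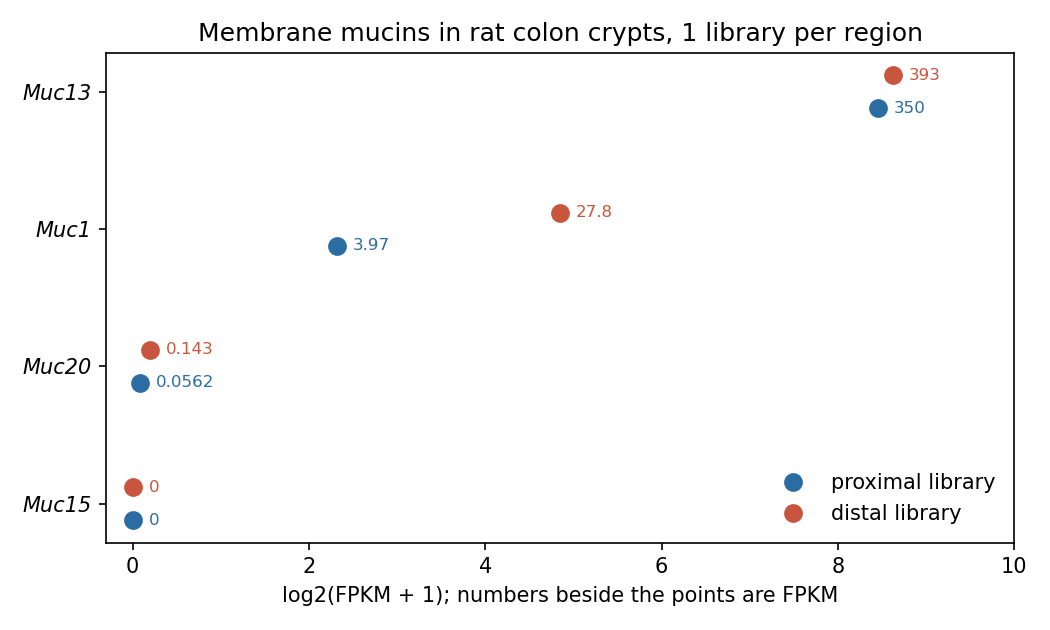
Level of the 4 mucin genes in the proximal (blue) and distal (red) library, as log2(FPKM + 1), with the FPKM printed beside each point and 1 point per library. Muc13 is high in both, Muc1 is apart at 3.97 and 27.8 FPKM, and Muc20 and Muc15 lie at or near 0.

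In the rn4 build of the table, Muc1 lies on chromosome 2 from 181399482 to 181403640 and shares its locus with no other gene. Its promoter is shown because it belongs to the mucin that differed, beside that of Muc20, which was near 0 in both libraries. Both windows run from 250 bases before to 50 bases after the start site of the RefSeq promoter table, on the plus strand of the GRCr8 build, at chr2:176933500-176933799 for Muc1 and chr11:81492641-81492940 for Muc20. That start site lies 438 bases inside the RefSeq span of Muc1 and 47 bases inside that of Muc20. Capitals mark matches, on either strand, to a TATA box (TATAAA), a GC box (GGGCGG), an E box (CACCTG) and a core recognised by CDX factors (TTTATG), letter patterns that do not overlap in these windows.
Muc1: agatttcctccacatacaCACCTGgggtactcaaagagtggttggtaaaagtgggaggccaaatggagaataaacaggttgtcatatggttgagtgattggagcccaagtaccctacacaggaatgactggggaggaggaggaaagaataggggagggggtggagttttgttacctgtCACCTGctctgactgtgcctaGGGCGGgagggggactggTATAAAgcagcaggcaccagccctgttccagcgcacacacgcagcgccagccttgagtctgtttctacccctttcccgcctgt
Muc20: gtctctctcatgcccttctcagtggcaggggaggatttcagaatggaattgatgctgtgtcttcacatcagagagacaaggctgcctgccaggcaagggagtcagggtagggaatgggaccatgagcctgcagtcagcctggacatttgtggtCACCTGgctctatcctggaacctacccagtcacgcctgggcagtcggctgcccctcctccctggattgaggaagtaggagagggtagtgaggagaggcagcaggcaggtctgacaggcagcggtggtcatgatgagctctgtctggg

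The Muc1 window holds a TATA box beginning 33 bases and a GC box beginning 51 bases before the start site. It also holds 2 E boxes, beginning 72 and 232 bases before it. The Muc20 window holds 1 E box and no match to the other patterns. Of 33469 promoter windows of 300 bases in the table, 14.2% hold the TATA pattern, 33.1% the GC box, 18.8% the E box and 12.7% the CDX core. A match describes the letters and is not a measured site. Muc13 also has an entry, but its start site lies 4367 bases inside the gene's RefSeq span, and Muc15 was not matched.

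Trim46, the gene next to Muc1, was also higher in the distal library. Trim46 encodes a microtubule-binding protein known from the axons of neurons. Its locus begins after a gap of 769 bases from that of Muc1. It went from 4.48 FPKM proximally to 20.1 FPKM distally, a 4.48-fold difference. For Trim46 the authors' deposited table gave a q-value of 2.04e-05 and a call. Over the genome, 912 pairs of neighbouring measured genes with separate loci lay less than 1000 bases apart. In 37 of those pairs at least 1 gene was 2-fold or more higher distally, and in 9 of the 37 (24.3%) both were. The pair of Muc1 and Trim46 is itself in both counts, and no rate was computed for pairs further apart. The further neighbours within 50 kb were closer to equal, with 1 exception. Krtcap2, a subunit gene of the enzyme that transfers N-linked sugars, stood at 60.02 and 71.2 FPKM, and Mtx1, on the other side, at 29.5 and 28.7 FPKM. The sugar transporter gene Slc50a1 stood at 128 and 180 FPKM and the ephrin ligand gene Efna1 at 81.3 and 96.3 FPKM. The exception, Dpm3, a subunit gene of the dolichol-phosphate mannose synthase, stood at 1.81 and 5.37 FPKM without a call in the authors' deposited table. No source used here says whether the libraries kept strand, and whether reads of Muc1 entered the value of Trim46, or the reverse, was not tested.

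**Figure D2:**
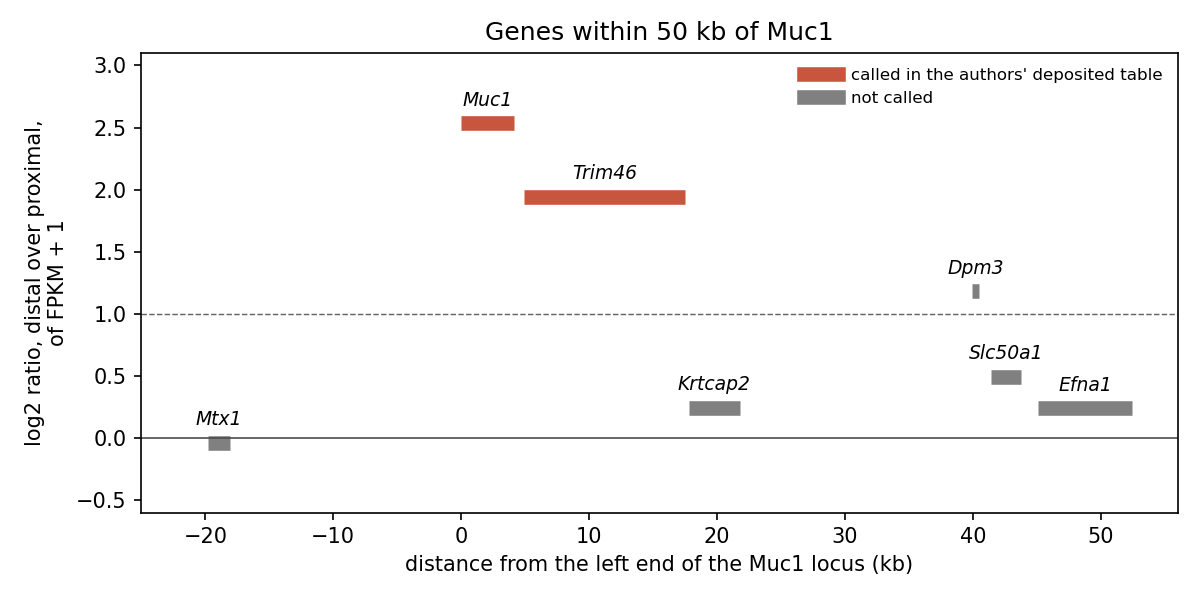
Genes within 50 kb of Muc1, drawn to scale by their distance from the left end of the Muc1 locus (kb, rn4), at the height of their log2 ratio of distal over proximal FPKM + 1, with red for genes called in the authors' deposited table and the dashed line at 2-fold. Muc1 and Trim46, 769 bases apart, are the 2 called genes, and Mir92b, listed at 0 in both libraries, is not drawn.

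Muc13 was the most abundant of the 4 mucins in both libraries. Muc13 encodes an apical membrane mucin of the intestine with EGF-like domains. Its level was 350 FPKM proximally and 393 FPKM distally, a ratio of 1.12. It was number 139 by level among 16468 genes in the proximal library and number 148 in the distal library. Its log2 ratio of 0.17 was close to the median of 0.09 over all measured genes, and it turned to -0.0057 when both libraries were given the same upper quartile. The authors' deposited table did not call Muc13 (q-value 0.9996). The 95% interval implied by the authors' deposited table ran from 0.579-fold to 2.17-fold. Of 689 genes with at least 100 FPKM in both libraries, 4.64% were at least 2-fold apart and 86.1% were less than 1.5-fold apart, as Muc13 was. Relative to the same 10 epithelial markers its distal over proximal ratio ranged from 0.649 to 1.42, and relative to Car1 it was 7.39.

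The value of Muc13 carries a limit of the annotation. The table gives it, on chromosome 11 from 68073473 to 68794879 of rn4, the same locus of 721407 bases as the integrin gene Itgb5, the guanine nucleotide exchange factor gene Kalrn and the pyrimidine synthesis gene Umps, whereas its RefSeq span in GRCr8 is 27424 bases. Those genes stood at 11.3 and 13.3 FPKM (Itgb5), 2.19 and 4.28 FPKM (Kalrn) and 15.8 and 27.6 FPKM (Umps). Their log2 fold changes in the authors' deposited table have implied standard errors of 2.30, 2.70 and 2.70, against 0.49 for Muc13. All 3 lay far below Muc13 in both libraries.

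Levels of different genes can be compared only if the values are FPKM, scaled by length, and if the value of Muc13 is not set by its shared locus; neither was tested. Taken so, Muc13 was 88.2 times as high as Muc1 in the proximal library and 14.1 times in the distal library. Together the 4 genes summed to 354 and 421 FPKM. Muc13 made up 98.9% of that sum proximally and 93.4% distally, and Muc1 made up 1.12% and 6.61%. The order of the 4 levels, Muc13, Muc1, Muc20 and Muc15, was the same in both libraries.

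Muc20 and Muc15 lay near or at 0. Muc20, a membrane mucin that binds the receptor Met, lies on chromosome 11 from 69808275 to 69823526 of rn4. Its level was 0.0562 FPKM proximally and 0.143 FPKM distally. Among 1201 genes above 0 and under 0.5 FPKM in both libraries, the commonest distal over proximal ratio was 0.85, which 80 genes had to within 0.005. The Muc20 ratio of 2.55 is about 3.0 times that rounded value, and 4 other genes shared the ratio of 2.55. Whether these ratios stand for whole reads, such as 1 proximal and 3 distal ones for Muc20, was not tested, and no fold is drawn from them. Muc15, a membrane mucin first known from milk fat globules, lies on chromosome 3 from 96181642 to 96193771 and was listed at 0 in both libraries. The authors' deposited table marked both genes as not tested.

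Genes listed as mucin-like under other symbols were less than 2-fold apart where they were measured, which was 2 of the 5 with a row. Cd164, an endolysosomal sialomucin, stood at 186 and 170 FPKM. Prap1, whose listing as mucin-like was not checked here, stood near the limit of 1 FPKM, at 1.17 and 0.985 FPKM. Emcn and Mcam, which mark blood vessels, and Prg4 were under 0.1 FPKM in both libraries. Other genes were added after their values were seen. Mucdhl, the mucin-like protocadherin that RefSeq now names Cdhr5 and that links microvilli at their tips, stood at 271 and 326 FPKM. Parm1, another membrane mucin-like gene, stood at 126 and 207 FPKM, and the salivary mucin gene Prol1 was listed at 0 in both libraries.

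**Figure D3:**
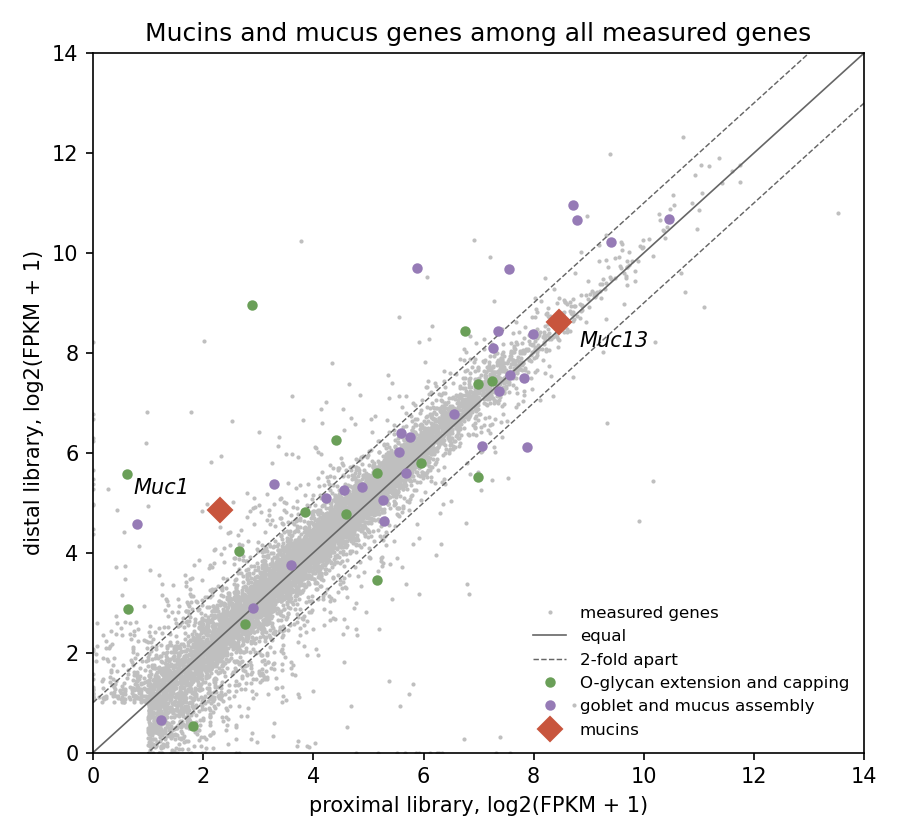
Each measured gene by its log2(FPKM + 1) in the proximal (x) and distal (y) library, with Muc1 and Muc13 as red diamonds, the O-glycan extension and capping genes in green, the goblet and mucus assembly genes in purple, the solid line at equality and dashed lines at 2-fold. Muc13 lies next to the line of equality and Muc1 above the upper dashed line.

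Partners of membrane mucins differed between the libraries about as often as genes at large. Of 17 measured genes, 0 reached 2-fold distally and 1 proximally, against 3.71% and 3.91% of all measured genes. Their median log2 ratio was 0.04, against 0.09 over all. Lgals3, the galectin that binds mucin sugars, stood at 2722 and 2695 FPKM. Ctnnb1, the beta-catenin gene, stood at 206 and 196 FPKM, and Ezr, which ties the apical membrane to actin, at 146 and 225 FPKM. The member past 2-fold was Msn, the moesin gene, at 7.03 and 2.10 FPKM. Moesin is abundant in leukocytes, whose marker Ptprc stood at 8.97 and 1.44 FPKM, and the part of these cells in the Msn value was not tested.

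Among the enzymes that start mucin O-glycans, the 3 that were 2-fold or more apart build core structures. Of 14 measured start and core genes, 1 reached 2-fold distally and 2 proximally, beside 3.71% and 3.91% of all measured genes. The list's median log2 ratio was 0.04, beside 0.09 over all. The GalNAc transferase genes with the highest levels, which add the first sugar, were Galnt6 at 180 and 186 FPKM, Galnt7 at 86.7 and 80.9 FPKM and Galnt4 at 76.2 and 80.9 FPKM. The locus of Galnt6 is listed for 8 genes, so its level carries the same limit as that of Muc13. Higher in the proximal library were Gcnt3, which makes core 2 and core 4 branches, at 78.5 and 16.99 FPKM, and B3gnt6, the core 3 synthase gene, at 37.5 and 12.9 FPKM. Gcnt1, another core 2 enzyme gene, was the member past 2-fold distally, at 3.46 and 8.68 FPKM. All 3 carry a call in the authors' deposited table.

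Enzymes listed as extending and capping sugar chains moved both ways, and the list is not confined to enzymes of O-linked chains. Of 16 measured genes, 6 reached 2-fold distally and 3 proximally, where the shares over all measured genes were 3.71% and 3.91%. The list's median log2 ratio was 0.41, where that of all was 0.09. With equal upper quartiles these medians became 0.25 and -0.06. Besides B3gnt7 (6.43 and 499 FPKM) and the sulfotransferase gene Chst5 (0.530 and 46.5 FPKM), the distal library was higher for B3gnt8, at 0.548 and 6.36 FPKM, and B3gnt3, at 20.3 and 75.8 FPKM, which add N-acetylglucosamine. St6galnac1, which adds sialic acid to the first sugar, stood at 107 and 344 FPKM. The proximal library was higher for the sialyltransferase genes St6galnac2, at 34.6 and 9.91 FPKM, and St3gal1, at 126 and 45.0 FPKM, and for B4galt1, at 2.52 and 0.437 FPKM. B3galt5, a galactosyltransferase gene, was nearly level at 151 and 171 FPKM. Calls of the authors' deposited table went to 6 distal and 3 proximal members, where 2.73% and 2.69% of all tested rows were called.

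Goblet cell and mucus assembly genes held 29 measured members, of which 7 reached 2-fold distally and 1 proximally. The list is not confined to goblet cells, and Slc26a3, at 226 and 179 FPKM, is also among the colon epithelium markers. Over all measured genes those shares were 3.71% and 3.91%. The list's median log2 ratio was 0.43, or 0.26 with equal upper quartiles, compared with 0.09 and -0.06 over all. Retnlb, a goblet cell product, stood at 57.8 and 834 FPKM and Best2, an anion channel gene, at 0.740 and 22.97 FPKM. Tff3, the trefoil peptide packed with mucin, stood at 438 and 1618 FPKM. Clca1, a mucus-processing protease gene, stood at 417 and 1992 FPKM (4.78-fold), and Fcgbp, which is bound to Muc2 in mucus, at 185 and 820 FPKM (4.42-fold). Neither of this last pair was called in the authors' deposited table, with q-values of 0.290 and 0.211. The standard errors implied by the authors' deposited table were 1.04 and 0.91 on the log2 scale, against 0.32 for Tff3. Agr2, a disulfide isomerase gene of mucin folding, was nearly level at 1410 and 1630 FPKM. The one member past 2-fold proximally on the scale of FPKM + 1 was Spink4, at 236 and 68.0 FPKM. Spink4 is a protease inhibitor gene of goblet cells, and the authors' deposited table did not call it. Other members were higher proximally by less, such as Nlrp6 at 133 and 69.7 FPKM. Of the transcription factor genes in this list, Foxa2 alone was past 2-fold and is named after its value was seen. It stood at 8.76 and 40.5 FPKM (4.62-fold), with a q-value of 5.78e-07 and a call in the authors' deposited table. Muc1 was thus higher in the library in which several secreted mucus genes were higher, and the share of goblet cells in the Muc1 value was not tested.

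**Figure D4:**
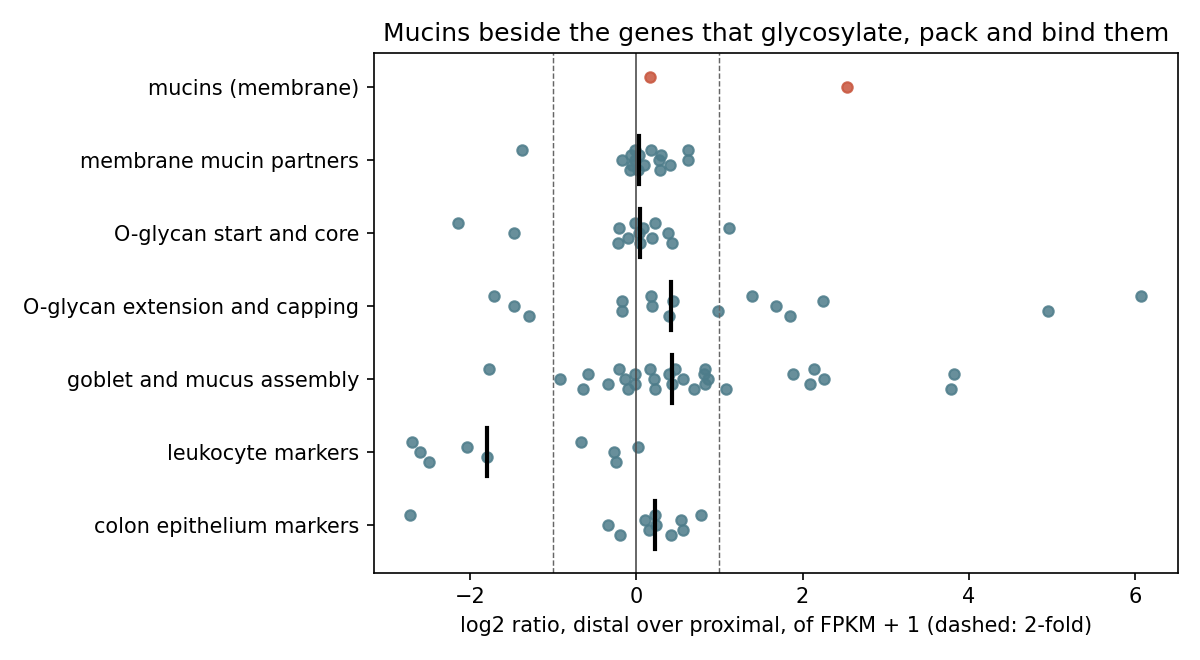
Log2 ratio of distal over proximal FPKM + 1 for every measured gene (1 point per gene) of the mucins and 6 other lists, with a black bar at each list's median, none for the 2 mucins, and dashed lines at 2-fold. Partner genes crowd round 0, and the extension genes spread to both sides with 6 past 2-fold distally and 3 proximally. Of 29 goblet and mucus assembly genes, 7 lie past 2-fold distally, and 5 of 9 leukocyte markers lie past 2-fold proximally.

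The genes closest to each measured mucin were found by the distance between their log2(FPKM + 1) values over the 2 libraries, a likeness that rests on 2 points per gene. Nearest to Muc1 were Ada, the adenosine deaminase gene, at 3.96 and 31.0 FPKM (distance 0.15), and Bmp2, a secreted BMP ligand gene, at 4.82 and 31.3 FPKM (distance 0.28). Only 1 of the other 9846 measured genes lay within 0.25 of Muc1. Nearest to Muc13 were Atp5c1, a subunit gene of the mitochondrial ATP synthase, at 351 and 383 FPKM (distance 0.036), and Psap, the lysosomal prosaposin gene, at 343 and 401 FPKM (distance 0.043). Within 0.25 of Muc13 lay 31 genes.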

How the data were processed

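Messenger RNA of 2 libraries was analysed, 1 per region; the 5 chromatin immunoprecipitation libraries were not analysed here. The labels name columns through their printed sample numbers. Per the submitters' processing notes, CASAVA, TopHat2 and build rn4 are named for RNA, without version numbers or roles. No label names the program that wrote the gene table. FPKM made by the authors is the unit assumed, since the values are not whole and sum to 412814 and 463340; how the authors scaled the libraries is not given, and total reads are unknown. The deposited log2 fold change, test statistic (a score), p-value and q-value are the authors' own. The deposited p-value matched the normal tail of that statistic to within 2.76e-06, so log2 fold change over statistic was read as a standard error.

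Of 16492 rows, those marked as failed or low in data and a repeated gene were dropped. Ratios are log2((distal + 1)/(proximal + 1)), which understates low genes; measured means at least 1 FPKM in 1 library; no test was run. In the list counts, 2-fold was read on this scale, and folds printed beside FPKM are plain ratios. Named from each list were up to 4 genes past 2-fold per direction and the 3 highest. Loci start at 0 in the table and are printed from 1, since 1185 of 1186 short olfactory receptor loci then have a length divisible by 3. Of all genes, 1297 share a locus. Members and lists were chosen with earlier results of these data known. Python 3.11.15 and pandas 2.3.3 were used.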

Additional observations from a re-analysis of the deposited data

How the results depend on the processing

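No paired analysis was possible because each region had 1 library. No library could be left out, and gel-forming mucins gave no value under any setting. Muc1 stayed above 2-fold on the distal side under both pseudocounts (2.78 with 0.1 and 1.87 with 5 FPKM) and both rescalings (2.44 with a median log2 ratio of 0 and 2.37 with equal upper quartiles). Muc13 stayed under 2-fold, from -0.0057 to 0.17. The counts of mucins past 2-fold, 1 distal and 0 proximal, were the same at every minimum and fold tried, including 4-fold. The minimum could not change them, since Muc1 passed each one and the other mucins lay under 2-fold on the scale of FPKM + 1. Without genes that share a locus the counts were also the same. Leaving those genes out removes Muc13 and leaves Muc1 as the only measured mucin, so these counts were fixed in advance. The summed membrane mucin ratio then goes from 1.19 to 7.01. Of 131 values under alternatives, 110 stayed within the limits set and 21 did not. For a median log2 ratio the limit was a change of 0.1, and ratios had to stay on the same side of 2-fold. The 110 include values that could not change, so the tally does not measure stability. With no minimum, for example, the list counts were fixed, since genes under 1 FPKM in both libraries cannot reach 2-fold on the scale of FPKM + 1.

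For the start and core genes, the distal count of 1 became 0 with a pseudocount of 5 FPKM, with equal upper quartiles and at 4-fold, where the proximal count was 1. For the extension and capping genes, 4-fold left 3 and 0. For the goblet and mucus assembly genes, the proximal count was 2 under both rescalings and with a pseudocount of 0.1 FPKM. It was 3 at 1.5-fold (12 distal) and 0 at 4-fold. For the partners, the proximal count was 0 with a pseudocount of 5 FPKM and at 4-fold, and the distal count was 2 at 1.5-fold. With equal upper quartiles the median of all measured genes went from 0.09 to -0.06, and the medians of these 4 lists went down too: extension and capping genes from 0.41 to 0.25, goblet genes from 0.43 to 0.26, partners from 0.04 to -0.13 and start and core genes from 0.04 to -0.12. Over all measured genes, 48.7% of those 2-fold apart were higher in the distal library, against 60.9% with a pseudocount of 5 FPKM and 38.0% with equal upper quartiles. The depth, unknown in reads, limits what can be said of Muc15 and Muc20.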
